A study of Mus musculus with 12 samples.

Results

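The 46 genes described here encode the machinery of mitosis: cyclins and kinases, the kinetochore and its checkpoint, spindle motors, cytokinesis factors, condensin and the transcription factor Foxm1. They were listed by gene name, with no measured value in the rule, and all 46 were found among the 24421 gene symbols counted in each library. RNA was sequenced from 12 mouse brain samples in 4 groups of 3 libraries. The tumour groups were whole tumours that formed after RCAS virus, an avian retroviral vector, carrying a fusion (YAP1-MAMLD1-dR3R1, or YAP1-FAM118B, or else YAP1-TFE3) was injected into the brain, and the other group was uninjected normal cortex, called naive. YAP1 is the co-activator held back by the Hippo pathway, and each construct joins it to another protein. The labels do not explain the suffix dR3R1, and they give no mouse line, age, further allele or target cell of the virus for any group. Nothing in them ties each library to an animal of its own, and a p-value here therefore reflects the spread among these samples alone, part of which may be technical. For naive samples the tissue field reads brain tumour but the source field reads normal cortex. The protocol field speaks of cell cultures, whereas the design text speaks of snap-frozen tumours.

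In a dividing cell, CDK1 bound to cyclins A and B drives entry into mitosis, condensin compacts the chromosomes, and kinetochores tie them to spindle microtubules. The spindle checkpoint holds back the anaphase-promoting complex, a ubiquitin ligase, until every chromosome is attached. CDC20 then directs that ligase to cyclin B and to the inhibitor of separase, the sisters separate, and a contractile ring divides the cell. Most of these genes are transcribed late in the cell cycle. Complexes of MuvB proteins with B-MYB or FOXM1 act on them through a promoter element called the cell cycle genes homology region (CHR), often beside CCAAT boxes bound by the factor NF-Y. The adult cortex holds few dividing cells, so transcripts of this kind are scarce there.

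RefSeq promoter windows (GRCm38.p6, 250 bases before to 50 bases after the annotated start) were matched by symbol for 37 of the 46 genes, in 39 windows because Ect2 and Prc1 have 2 starts each. The letters TTTGAA or TTTAAA, the common spellings of the CHR, and CCAAT were searched on both strands. On the other strand TTTGAA is spelled TTCAAA and CCAAT is spelled ATTGG, while TTTAAA stays the same; 2 of the matches in these windows overlapped another. TTTGAA was present in 30 of the 39 windows, or 76.9%, against 17.9% of all 32851 windows in the table. It lay within 50 bases of the start in 71.8% of them, against 4.94% of all windows. CCAAT was present in 74.4%, against 37.4%, and both CHR letters and CCAAT in 71.8%, against 10.7%. TTTAAA was present in 23.1%, against 13.2%. Windows of 29 DNA replication genes, taken for comparison, held TTTGAA in 14.7% and CCAAT in 58.8% of 34 windows. A match describes letters and is not a measured binding site.

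The first 5 windows shown belong to genes that were the most abundant of their functional group and held both CHR letters and CCAAT. They are ordered by the distance of the CHR letters from the start. In the other groups the most abundant gene had no matched window or, for Anln, no CCAAT. The window of Espl1 was added after its values were seen because its pattern between the fusions differs from the rest. Each reads 5′ to 3′ on the strand of its gene, and capitals mark the CHR and CCAAT letters on either strand. Cenpf (chr1:189688037-189688336, minus strand) encodes an outer kinetochore protein, Prc1 (chr7:80294201-80294500, plus) a microtubule bundler of the central spindle, Cdc20 (chr4:118437294-118437593, minus) the activator of the anaphase-promoting complex, Top2a (chr11:99024140-99024439, minus) DNA topoisomerase II alpha, Bub1b (chr2:118597961-118598260, plus) a spindle checkpoint kinase and Espl1 (chr15:102296043-102296342, plus) separase.
Cenpf: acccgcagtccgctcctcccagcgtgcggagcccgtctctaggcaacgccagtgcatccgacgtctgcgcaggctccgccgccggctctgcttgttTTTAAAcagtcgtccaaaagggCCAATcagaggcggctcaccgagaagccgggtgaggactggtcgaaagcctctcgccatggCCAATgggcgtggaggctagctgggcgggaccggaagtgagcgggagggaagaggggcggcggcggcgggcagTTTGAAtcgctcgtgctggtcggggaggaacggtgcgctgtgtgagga
Prc1: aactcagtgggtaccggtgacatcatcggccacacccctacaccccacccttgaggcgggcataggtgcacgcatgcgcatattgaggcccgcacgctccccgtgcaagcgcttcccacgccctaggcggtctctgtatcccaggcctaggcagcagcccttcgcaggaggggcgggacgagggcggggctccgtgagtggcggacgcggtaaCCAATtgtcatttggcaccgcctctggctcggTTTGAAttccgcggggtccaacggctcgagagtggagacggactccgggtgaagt
Cdc20: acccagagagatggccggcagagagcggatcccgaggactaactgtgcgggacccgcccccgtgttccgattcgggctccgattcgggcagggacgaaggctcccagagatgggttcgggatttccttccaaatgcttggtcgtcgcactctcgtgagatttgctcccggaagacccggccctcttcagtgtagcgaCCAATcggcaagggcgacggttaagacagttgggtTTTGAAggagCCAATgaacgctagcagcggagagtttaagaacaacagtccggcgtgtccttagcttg
Top2a: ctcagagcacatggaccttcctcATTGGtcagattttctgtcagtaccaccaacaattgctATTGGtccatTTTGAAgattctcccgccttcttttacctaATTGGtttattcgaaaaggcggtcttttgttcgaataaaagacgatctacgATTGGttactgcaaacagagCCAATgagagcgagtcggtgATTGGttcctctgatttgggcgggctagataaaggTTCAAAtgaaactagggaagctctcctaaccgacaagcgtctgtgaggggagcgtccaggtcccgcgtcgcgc
Bub1b: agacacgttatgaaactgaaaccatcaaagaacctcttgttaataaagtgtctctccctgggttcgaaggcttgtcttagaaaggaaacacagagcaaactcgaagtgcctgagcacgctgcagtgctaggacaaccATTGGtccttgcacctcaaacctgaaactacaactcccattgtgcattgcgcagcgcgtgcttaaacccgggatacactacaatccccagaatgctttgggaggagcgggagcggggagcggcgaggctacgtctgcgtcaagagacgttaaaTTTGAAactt
Espl1: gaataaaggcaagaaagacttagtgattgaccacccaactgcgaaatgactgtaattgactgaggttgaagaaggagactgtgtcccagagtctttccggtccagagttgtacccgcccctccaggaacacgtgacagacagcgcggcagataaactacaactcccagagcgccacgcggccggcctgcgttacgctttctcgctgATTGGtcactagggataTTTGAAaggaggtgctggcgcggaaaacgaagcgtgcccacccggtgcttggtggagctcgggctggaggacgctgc

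In Cdc20 the CHR letters lie between a pair of CCAAT boxes, and in Top2a both kinds of letters occur repeatedly, on both strands. The Espl1 window carries TTTGAA and a CCAAT box like those of the other genes shown. CHR letters were found in 31 of the 37 genes and CCAAT in 27, with both in 26. Bub1 had CCAAT and no CHR letters. No match was found in the windows of Mad2l1, Melk, Ncaph, Nuf2 and Nusap1.

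**Figure D1:**
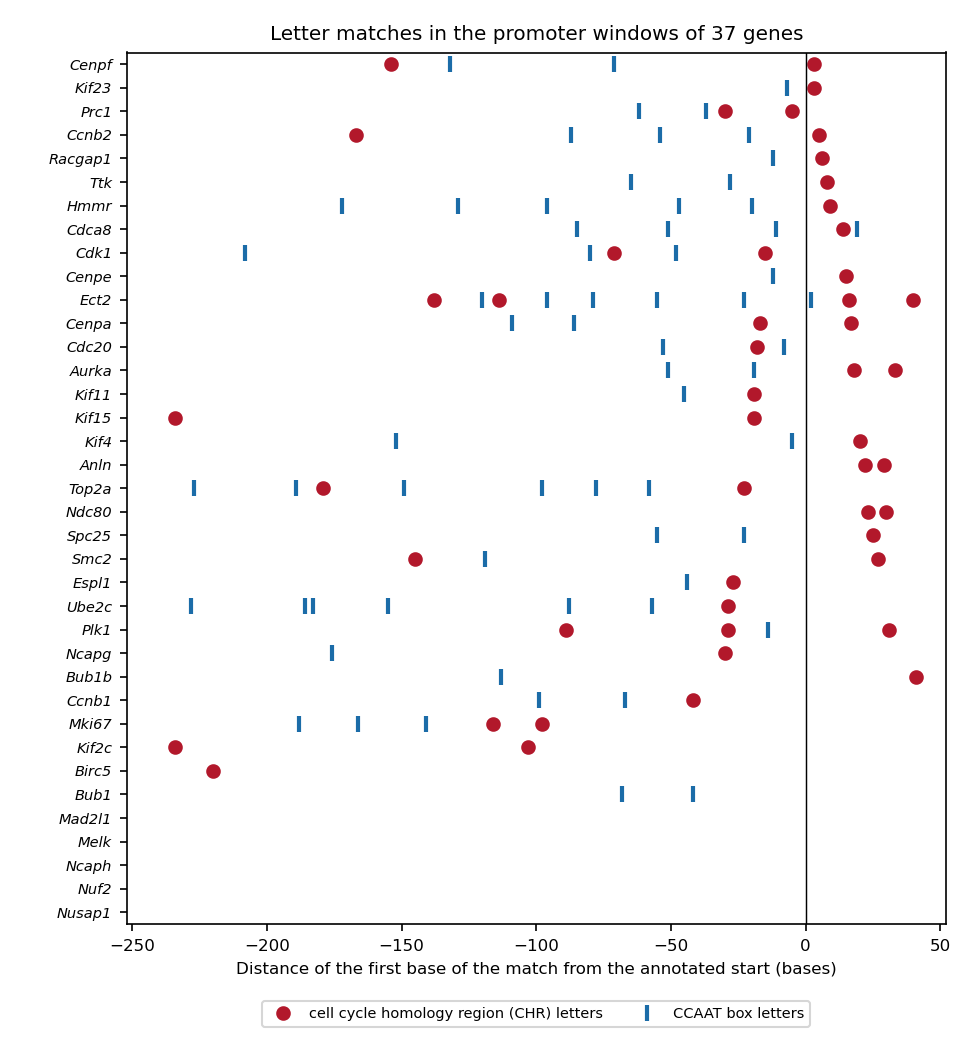
Positions of CHR letters (red points) and CCAAT letters (blue bars) in the promoter windows of 37 mitosis and spindle genes; the x axis is the distance in bases from the annotated start, drawn as a vertical line at 0, and both windows of Ect2 and Prc1 share a row. Genes are ordered by the distance of their nearest CHR letters, which lay within 50 bases of the start in most of the 31 genes that have them, and the bottom rows are the 5 genes with no match.

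Library totals lay between 19850220 and 24760814 counts, and a count of 3 in a library equalled 0.121 to 0.151 CPM, the count scaled to a common library total. Naive replicate 2 and YAP1-FAM118B replicate 2 held both Xist and the Y-linked Ddx3y, at 26.6 and 51.1 CPM and at 171 and 31.6 CPM, whereas every other library held almost none of one of them; counts of calls that move by over 1.5 times without these libraries are given with and without them. Markers of neurons summed to 526 to 1481 CPM in YAP1-MAMLD1-dR3R1 tumours, 3972 to 6175 in YAP1-FAM118B tumours and 89.7 to 973 in YAP1-TFE3 tumours, against 7599 to 9912 in naive cortex. Markers of microglia summed to 7306 to 11794 CPM in YAP1-MAMLD1-dR3R1 tumours, 2244 to 2508 in YAP1-FAM118B tumours and 1375 to 3959 in YAP1-TFE3 tumours, against 306 to 369 in naive cortex. Those of monocytes and macrophages reached 1862 to 3876, 369.8 to 1215 and 1254 to 1557 CPM in the same tumour groups, against 12.9 to 19.7 in naive cortex. T and NK cell markers summed to at most 109 CPM in any library, with Cd3d and Nkg7 at 0 in every naive library. Fibroblast and meninges markers summed to 3227 to 5310 CPM in YAP1-MAMLD1-dR3R1 tumours, 3245 to 14839 in YAP1-FAM118B tumours and 719 to 1929 in YAP1-TFE3 tumours, against 53.5 to 119.7 in naive cortex. Markers of endothelium summed to 232 to 387 CPM in YAP1-MAMLD1-dR3R1 tumours, 103 to 194 in YAP1-FAM118B tumours and 109 to 208 in YAP1-TFE3 tumours, against 87.5 to 98.8 in naive cortex. Astrocyte markers summed to 3886 to 6738 CPM in YAP1-MAMLD1-dR3R1 tumours, 1863 to 4116 in YAP1-FAM118B tumours and 739 to 2434 in YAP1-TFE3 tumours, against 3572 to 4532 in naive cortex. Singly, the 6 astrocyte markers went both ways in each fusion. Their log2 fold changes against naive cortex ran from -2.37 to 3.8, from -0.82 to 1.39 and from -4.18 to 3.66 in the same order. The part of any of these cell types in the mitotic gene levels was not tested. In bulk tissue, fewer cells of a type and less RNA per cell cannot be told apart.

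All 46 genes together were more abundant in every tumour library than in every naive library. Their levels, scaled by library size and TMM factors and then summed, were 1215.1, 1777.0 and 1918.4 CPM in YAP1-MAMLD1-dR3R1 tumours, 937.0, 992.0 and 967.4 in YAP1-FAM118B tumours and 3715.8, 3696.0 and 4510.4 in YAP1-TFE3 tumours, against 199.3, 157.3 and 201.9 in naive cortex. The group means were 8.79, 5.19 and 21.34 times that of naive cortex in YAP1-MAMLD1-dR3R1 tumours, YAP1-FAM118B tumours and YAP1-TFE3 tumours. No library of a group overlapped a library of another, with YAP1-TFE3 highest, YAP1-MAMLD1-dR3R1 next and YAP1-FAM118B lowest among the tumours. The same order held for the means of 44 of the 46 genes singly, an order found in 16.4% of all genes tested. The exceptions were Anln and Espl1, which are described further on.

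**Figure D2:**
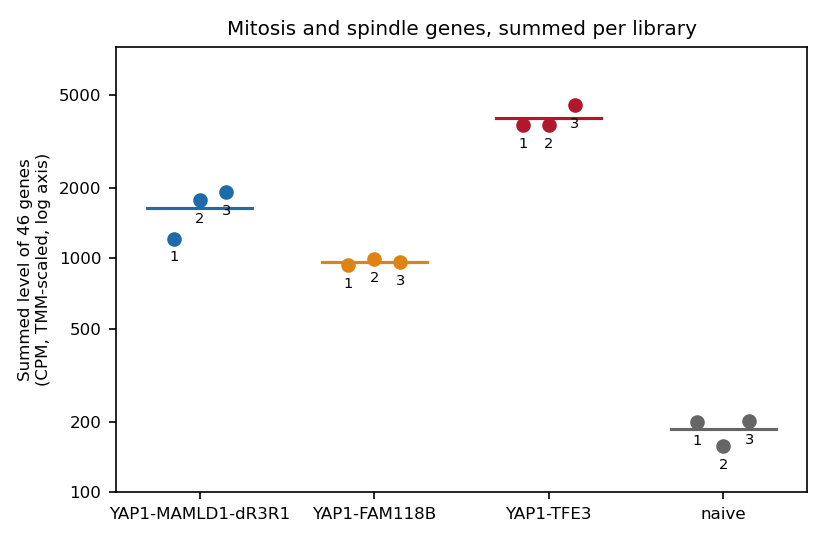
Summed level of the 46 mitosis and spindle genes in each library (points with replicate numbers; CPM scaled by TMM factors, log axis), with the group mean as a bar. The YAP1-TFE3 libraries lie between 3696.0 and 4510.4 CPM and the naive libraries between 157.3 and 201.9 CPM, and the 4 groups do not overlap.

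All 46 genes passed the filter on low counts and were tested with 16364 genes in all. Against naive cortex 45 rose in YAP1-MAMLD1-dR3R1 tumours, 45 in YAP1-FAM118B tumours and all 46 in YAP1-TFE3 tumours, by edgeR's quasi-likelihood test at an adjusted p under 0.05. Of all genes tested 34.4%, 21.3% and 40.6% were called higher in those comparisons. None of the 46 was called lower by edgeR, against 28.8%, 8.45% and 30.0% of all genes. DESeq2 called none of them lower, against 30.5%, 16.2% and 32.8% of all genes. None was lower at an unadjusted p under 0.05 either, a threshold for which no share of all genes was computed here or below. The median log2 fold change of the 46 was 4.29 in YAP1-MAMLD1-dR3R1 tumours, 3.45 in YAP1-FAM118B tumours and 5.75 in YAP1-TFE3 tumours, beside 0.06, -0.05 and 0.23 over all genes tested. Wherever 3 fold changes against naive cortex follow a gene's name, the first is that of YAP1-MAMLD1-dR3R1 tumours, the second that of YAP1-FAM118B tumours and the last that of YAP1-TFE3 tumours. The 3 comparisons share their naive libraries and are therefore not independent. With library size as the only scaling, the median of all genes in YAP1-TFE3 tumours moved to 0.03, and the members' median stood 5.52 above it, against 5.53 with TMM. Counts in naive cortex were low: 20 of the genes averaged under 1 CPM there, 14 had fewer than 10 counts in at least 1 naive library, and Bub1 had 15 counts over all 3. Without naive replicate 2 and YAP1-FAM118B replicate 2 the counts were again 45, 45 and 46.

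**Figure D3:**
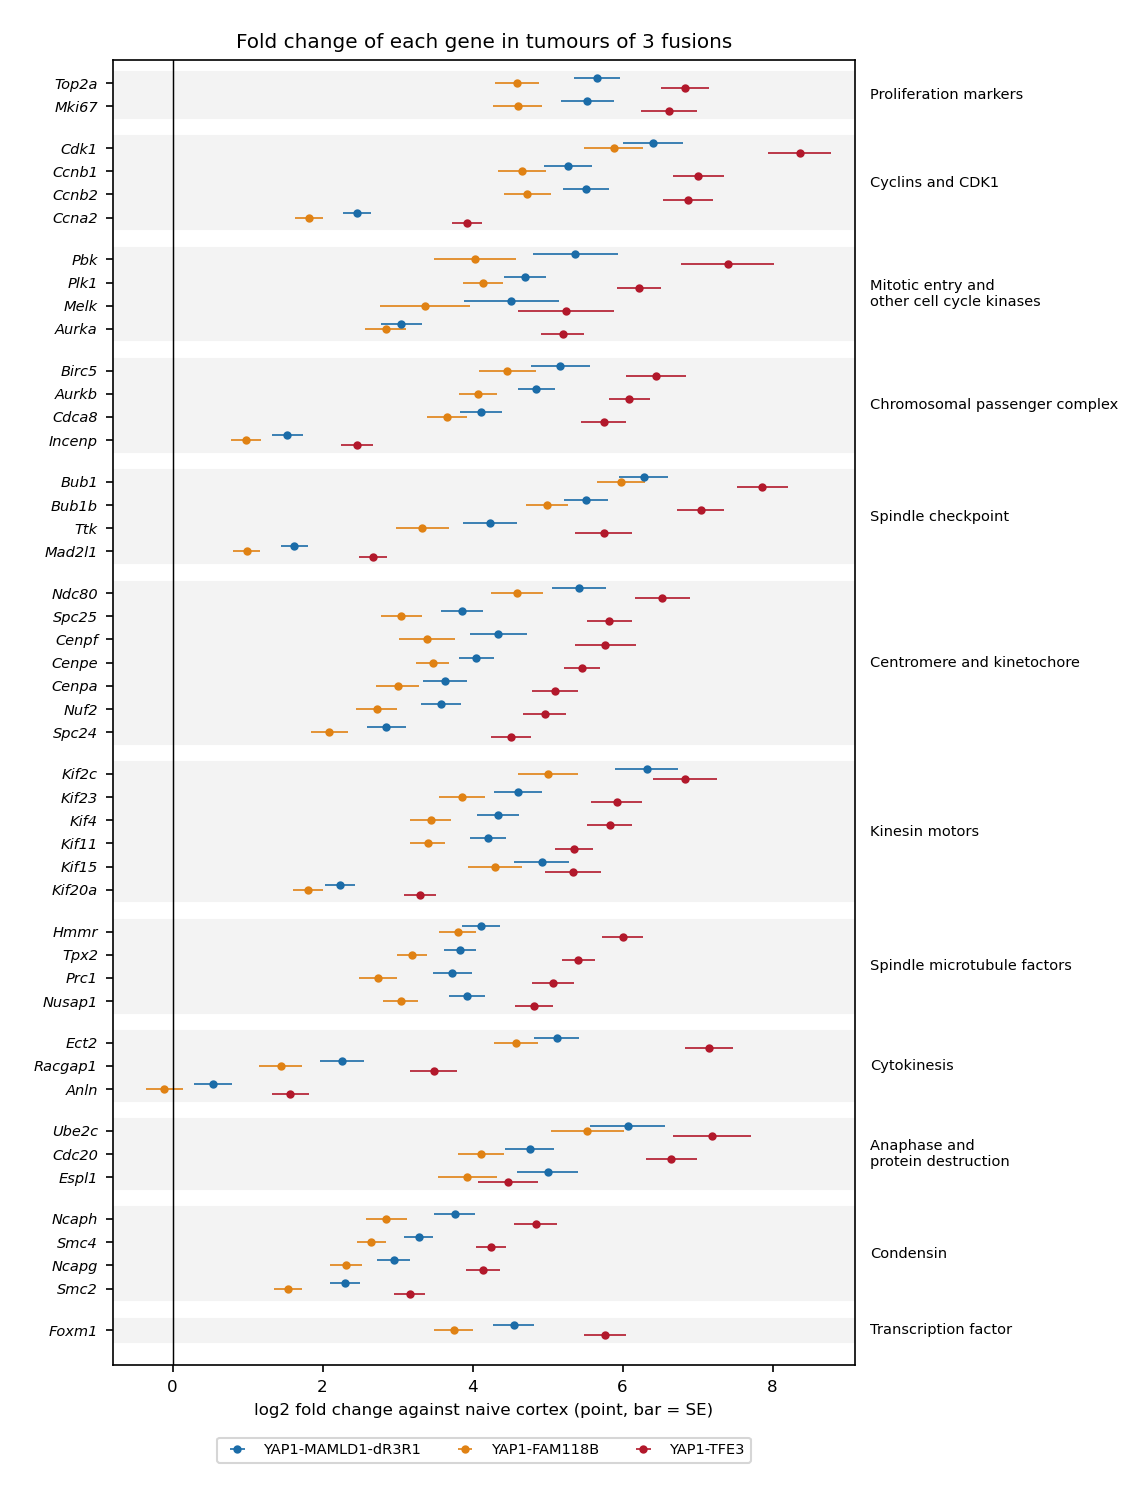
Log2 fold change (point) and SE (bar) of each of the 46 genes in tumours of YAP1-MAMLD1-dR3R1 (blue), YAP1-FAM118B (orange) and YAP1-TFE3 (red) against naive cortex, grouped by function. In nearly every row YAP1-TFE3 lies farthest right and YAP1-FAM118B farthest left; Anln sits nearest to 0, and Espl1 is the row where YAP1-MAMLD1-dR3R1 lies right of YAP1-TFE3.

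Both proliferation markers rose in tumours of every fusion. Top2a (chromosome 11, 98992947 to 99024199, RefSeq on GRCm38.p6 as for all positions below), the enzyme that untangles sister DNA, had 105, 188 and 181 CPM in YAP1-MAMLD1-dR3R1 tumours, 74.3, 78.8 and 71.5 in YAP1-FAM118B tumours, 305, 371 and 389.9 in YAP1-TFE3 tumours, against 3.37, 3.85 and 2.11 in naive cortex. It was the most abundant of the 46 in each tumour group and rose by 5.66 ± 0.31 (SE, log2), 4.59 ± 0.29 and 6.83 ± 0.32 in YAP1-MAMLD1-dR3R1 tumours, YAP1-FAM118B tumours and YAP1-TFE3 tumours (edgeR adjusted p of 2.54e-06, 1.26e-05 and 4.15e-07). Mki67, which encodes the Ki-67 protein of the mitotic chromosome surface, averaged 125 ± 39.6 CPM in YAP1-MAMLD1-dR3R1 tumours, 65.6 ± 2.68 in YAP1-FAM118B tumours and 267 ± 91.9 in YAP1-TFE3 tumours, against 2.71 ± 0.642 in naive cortex (SD, n = 3 each).

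All 4 genes of the cyclin and CDK1 group rose in each fusion. Cdk1 (chromosome 10, 69335146 to 69352912), the kinase that drives mitosis, had 27.3, 35.5 and 46.7 CPM in YAP1-MAMLD1-dR3R1 tumours, 28.1, 22.1 and 26.02 in YAP1-FAM118B tumours, 149.9, 119 and 157 in YAP1-TFE3 tumours, against 0.246, 0.293 and 0.748 in naive cortex. Its fold changes of 6.40 ± 0.40, 5.88 ± 0.39 and 8.36 ± 0.42 (log2) were the largest of the 46 averaged over the fusions, and the naive values rest on 30 counts in all (edgeR adjusted p of 3.92e-06, 1.43e-05 and 5.01e-07). Ccna2, cyclin A2, which acts in S phase as well as in mitosis, had 41.9, 65.6 and 63.3 CPM in YAP1-MAMLD1-dR3R1 tumours, 35.03, 37.2 and 36.8 in YAP1-FAM118B tumours, 146, 158 and 166 in YAP1-TFE3 tumours, against 10.1, 12.4 and 8.45 in naive cortex. It had a higher naive level than the B-type cyclins and rose by 2.46, 1.82 and 3.93 (edgeR adjusted p of 9.75e-06, 0.000107 and 5.07e-07), while Ccnb1 and Ccnb2 rose by 4.66 to 7.01 over the 3 fusions. Exons of Ccna2 share 12.5% of their length with Exosc9 on the opposite strand, and how strand was handled in the counting is not given in the sources used here.

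Kinases of mitotic entry rose too, all 4 in each fusion. Pbk (chromosome 14, 65805911 to 65817822), a kinase of dividing cells also called TOPK, had 14.8, 35.1 and 34.6 CPM in YAP1-MAMLD1-dR3R1 tumours, 9.32, 15.2 and 8.86 in YAP1-FAM118B tumours, 106, 106 and 133 in YAP1-TFE3 tumours, against 1.03, 0.168 and 0.836 in naive cortex. Naive replicate 2 held the least Pbk, every YAP1-TFE3 library exceeded all others, and the lowest YAP1-MAMLD1-dR3R1 library lay within the range of YAP1-FAM118B tumours. Pbk also had the highest level per kilobase of exon in tumours, 28.8 CPM per kb over the 9 libraries, followed by Cdc20 at 25.9 and Top2a at 21.8. Plk1, which promotes entry and spindle assembly, rose by 4.70 ± 0.28, 4.14 ± 0.27 and 6.22 ± 0.29. Aurka, the centrosomal Aurora kinase, averaged 13.5 ± 3.20 CPM in YAP1-MAMLD1-dR3R1 tumours, 11.7 ± 0.955 in YAP1-FAM118B tumours and 59.8 ± 10.5 in YAP1-TFE3 tumours, against 1.62 ± 0.532 in naive cortex (SD, n = 3 each). Melk, a kinase abundant in proliferating progenitors, rose by 4.52, 3.37 and 5.24 with the widest SE of the group, 0.60 to 0.64.

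The chromosomal passenger complex corrects faulty attachments and later guides cytokinesis. Its kinase Aurkb, its targeting subunits Birc5 and Cdca8 and its scaffold Incenp all rose in each fusion. Incenp (chromosome 19, 9872295 to 9899489) had 29.9, 45.2 and 44.4 CPM in YAP1-MAMLD1-dR3R1 tumours, 29.1, 25.7 and 27.04 in YAP1-FAM118B tumours, 66.4, 67.1 and 94.3 in YAP1-TFE3 tumours, against 16.01, 13.9 and 11.4 in naive cortex. Although every tumour library exceeded every naive library, its fold changes were among the 3 smallest, 1.53 ± 0.21, 0.98 ± 0.20 and 2.46 ± 0.21 (edgeR adjusted p of 0.00016, 0.00552 and 7.93e-06). Its partners averaged 0.626 to 1.17 CPM in naive cortex, and their log2 fold changes ran from 3.66 for Cdca8 in YAP1-FAM118B tumours to 6.44 for Birc5 in YAP1-TFE3 tumours.

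Checkpoint genes showed the same contrast between members that were scarce and members that were present in cortex. Bub1b (chromosome 2, 118598202 to 118641592), a kinase that blocks CDC20 until attachment, had 21.9, 33.6 and 35.7 CPM in YAP1-MAMLD1-dR3R1 tumours, 20.9, 20.9 and 21.6 in YAP1-FAM118B tumours, 79.6, 86.4 and 95.8 in YAP1-TFE3 tumours, against 0.862, 0.712 and 0.396 in naive cortex. It rose by 5.51 ± 0.29, 4.99 ± 0.28 and 7.04 ± 0.31. Bub1, the kinase that recruits checkpoint proteins to the kinetochore, had 15.3, 14.9 and 20.1 CPM in YAP1-MAMLD1-dR3R1 tumours, 14.7, 13.6 and 12.9 in YAP1-FAM118B tumours, 46.7, 47.8 and 56.8 in YAP1-TFE3 tumours, against 0.287, 0.0840 and 0.264 in naive cortex. Its fold changes of 6.28, 5.98 and 7.86 were the second largest on average, after those of Cdk1 (edgeR adjusted p of 2.37e-06, 7.49e-06 and 3.32e-07). Mad2l1 (MAD2), the soluble inhibitor of CDC20, had 18.4, 28.6 and 30.2 CPM in YAP1-MAMLD1-dR3R1 tumours, 16.3, 15.9 and 17.4 in YAP1-FAM118B tumours, 47.5, 53.7 and 58.1 in YAP1-TFE3 tumours, against 8.05, 8.76 and 8.23 in naive cortex. Its naive libraries lay close together, and it rose by 1.62 ± 0.18, 0.99 ± 0.18 and 2.67 ± 0.19. Ttk, the kinase that starts checkpoint signalling, rose by 4.23, 3.33 and 5.75, and its level in tumours, 2.58 CPM per kb, was the second lowest of the 46.

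All 7 centromere and kinetochore genes rose in each fusion, by 2.09 to 6.53 on the log2 scale. Cenpf (chromosome 1, 189640606 to 189688107) had 27.1, 32.3 and 51.8 CPM in YAP1-MAMLD1-dR3R1 tumours, 16.8, 22.6 and 18.3 in YAP1-FAM118B tumours, 95.1, 96.4 and 109 in YAP1-TFE3 tumours, against 2.05, 0.880 and 2.55 in naive cortex. Cenpe, a kinesin that holds kinetochores to microtubule ends, had 25.8, 32.3 and 31.1 CPM in YAP1-MAMLD1-dR3R1 tumours, 18.8, 20.7 and 19.98 in YAP1-FAM118B tumours, 68.8, 62.3 and 106 in YAP1-TFE3 tumours, against 1.85, 1.97 and 1.54 in naive cortex. YAP1-TFE3 replicate 3 stood above the other YAP1-TFE3 libraries in Cenpe, and the groups did not overlap for either gene. The 4 subunits of the NDC80 complex, the main microtubule coupler, were among them. Spc25 had 10.1, 14.6 and 17.5 CPM in YAP1-MAMLD1-dR3R1 tumours, 9.24, 9.11 and 5.67 in YAP1-FAM118B tumours, 48.3, 61.9 and 53.3 in YAP1-TFE3 tumours, against 0.821, 0.963 and 1.10 in naive cortex. Spc24, which pairs with it, had 7.301, 12.8 and 11.9 CPM in YAP1-MAMLD1-dR3R1 tumours, 6.16, 5.29 and 7.47 in YAP1-FAM118B tumours, 30.1, 38.2 and 32.7 in YAP1-TFE3 tumours, against 1.76, 1.299 and 1.36 in naive cortex. The 4 groups were fully separated for Spc25, whereas YAP1-FAM118B replicate 3 of Spc24 lay just above YAP1-MAMLD1-dR3R1 replicate 1. Fold changes of Ndc80 (5.42, 4.59 and 6.53) exceeded those of Spc24 (2.85, 2.09 and 4.51), and those of Nuf2, Spc25 and the centromeric histone Cenpa lay between.

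All 6 kinesins rose in each fusion. Kif20a (chromosome 18, 34624624 to 34633277), a motor of the central spindle, had 35.5, 44.3 and 48.3 CPM in YAP1-MAMLD1-dR3R1 tumours, 34.5, 28.7 and 32.1 in YAP1-FAM118B tumours, 77.2, 75.9 and 117 in YAP1-TFE3 tumours, against 10.1, 9.34 and 7.92 in naive cortex. It rose by 2.23 ± 0.20, 1.80 ± 0.20 and 3.30 ± 0.21, the smallest fold changes among the motors, but 29.3% of its exon length is shared with Cdc23 on the opposite strand, and reads from the shared stretch may count for either gene, since the strand setting is not given in the sources used here. Kif4, a chromosome-bound motor that also shortens central spindle microtubules, had 13.2, 23.1 and 24.7 CPM in YAP1-MAMLD1-dR3R1 tumours, 9.65, 11.6 and 11.3 in YAP1-FAM118B tumours, 49.6, 52.3 and 69.1 in YAP1-TFE3 tumours, against 1.19, 0.922 and 0.880 in naive cortex. Its groups did not overlap, and 15.1% of its exon length is shared with Pdzd11. Kif11, the motor that pushes spindle poles apart, rose by 4.21, 3.40 and 5.35, and Kif23, a subunit of the centralspindlin complex, by 4.61, 3.86 and 5.92. Kif15, a motor that backs up Kif11, had 11.5, 17.3 and 17.9 CPM in YAP1-MAMLD1-dR3R1 tumours, 10.1, 9.95 and 10.5 in YAP1-FAM118B tumours, 15.4, 17.8 and 29.6 in YAP1-TFE3 tumours, against 0.328, 0.503 and 0.704 in naive cortex. It had the lowest level per kilobase of the 46 in tumours, 1.41 CPM per kb, and rose against naive cortex by 4.92 ± 0.37, 4.30 ± 0.36 and 5.34 ± 0.37. Kif2c, a kinesin that takes microtubules apart at kinetochores, rose by 6.32, 5.01 and 6.83.

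The spindle microtubule factors Tpx2, Hmmr, Prc1 and Nusap1 rose in each fusion. Tpx2, which activates Aurora A and nucleates microtubules, had 38.7, 44.9 and 52.1 CPM in YAP1-MAMLD1-dR3R1 tumours, 27.8, 34.8 and 24.7 in YAP1-FAM118B tumours, 132, 129.7 and 146 in YAP1-TFE3 tumours, against 2.92, 2.64 and 4.003 in naive cortex. Prc1 (chromosome 7, 80294445 to 80316259) had 33.6, 55.6 and 73.1 CPM in YAP1-MAMLD1-dR3R1 tumours, 23.9, 26.8 and 31.0 in YAP1-FAM118B tumours, 129, 135 and 148 in YAP1-TFE3 tumours, against 4.47, 3.73 and 4.05 in naive cortex. Hmmr, a spindle pole protein also known as a hyaluronan receptor, had 18.02, 22.96 and 21.9 CPM in YAP1-MAMLD1-dR3R1 tumours, 14.7, 18.2 and 17.6 in YAP1-FAM118B tumours, 69.02, 68.6 and 95.7 in YAP1-TFE3 tumours, against 1.56, 1.22 and 0.836 in naive cortex. Tpx2 and Prc1 were separated between all 4 groups, whereas YAP1-FAM118B replicate 2 of Hmmr lay just above YAP1-MAMLD1-dR3R1 replicate 1. Prc1 shares 11.1% of its exon length with Rccd1 on the opposite strand.

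Cytokinesis held the one gene that did not rise in every fusion. Anln (chromosome 9, 22331214 to 22389211) encodes anillin, which ties the contractile ring to the membrane and is also known in myelinating oligodendrocytes. It had 101, 88.9 and 81.1 CPM in YAP1-MAMLD1-dR3R1 tumours, 51.2, 67.2 and 53.4 in YAP1-FAM118B tumours, 192, 171 and 187 in YAP1-TFE3 tumours, against 61.01, 38.3 and 86.7 in naive cortex. Anln was the most abundant of the 46 in naive cortex, where it made up 32.6% of their summed level, against 5.84% in YAP1-MAMLD1-dR3R1 tumours, 5.92% in YAP1-FAM118B tumours and 4.65% in YAP1-TFE3 tumours. The naive libraries followed the order of their myelin marker sums of 7480, 5706 and 11891 CPM in replicates 1, 2 and 3, and myelin sums were 1768 to 4377 CPM in YAP1-MAMLD1-dR3R1 tumours, 2055 to 4792 in YAP1-FAM118B tumours and 532 to 791 in YAP1-TFE3 tumours; their part in the Anln level was not tested. The log2 fold change was 0.54 ± 0.25 in YAP1-MAMLD1-dR3R1 tumours (edgeR adjusted p of 0.0782) and -0.11 ± 0.25 in YAP1-FAM118B tumours (edgeR adjusted p of 0.739), neither passing, and Anln rose by 1.57 ± 0.25 in YAP1-TFE3 tumours (edgeR adjusted p of 0.000348). Without naive replicate 3 the value in YAP1-MAMLD1-dR3R1 tumours was 0.86 and passed (edgeR adjusted p = 0.00822), and that in YAP1-FAM118B tumours was 0.21 (edgeR adjusted p = 0.497). Ect2, the exchange factor that switches on the contractile ring, had 14.8, 20.7 and 22.3 CPM in YAP1-MAMLD1-dR3R1 tumours, 11.3, 15.5 and 12.8 in YAP1-FAM118B tumours, 78.6, 77.02 and 80.7 in YAP1-TFE3 tumours, against 0.821, 0.377 and 0.440 in naive cortex. It rose by 5.12 ± 0.30, 4.58 ± 0.29 and 7.15 ± 0.32. Racgap1, its centralspindlin partner, rose by 2.26, 1.44 and 3.48.

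Genes of anaphase and protein destruction rose in each fusion. Cdc20 (chromosome 4, 118432901 to 118437343) had 21.2, 30.8 and 29.2 CPM in YAP1-MAMLD1-dR3R1 tumours, 17.04, 16.9 and 17.7 in YAP1-FAM118B tumours, 117, 92.2 and 92.5 in YAP1-TFE3 tumours, against 1.52, 0.880 and 0.572 in naive cortex. It rose by 4.76 ± 0.32, 4.11 ± 0.31 and 6.65 ± 0.34. Ube2c, the ubiquitin-conjugating enzyme of the anaphase-promoting complex, had 13.7, 24.5 and 30.4 CPM in YAP1-MAMLD1-dR3R1 tumours, 16.1, 15.2 and 15.8 in YAP1-FAM118B tumours, 53.1, 44.3 and 51.96 in YAP1-TFE3 tumours, against 0.657, 0.209 and 0.132 in naive cortex. Its fold changes of 6.07 ± 0.50, 5.53 ± 0.49 and 7.19 ± 0.52 were the third largest of the 46 on average, from 24 naive counts in all, and 22.8% of its exon length is shared with the muscle gene Tnnc2 on the opposite strand. The YAP1-MAMLD1-dR3R1 and YAP1-FAM118B libraries of Ube2c overlapped.

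All 4 condensin genes measured rose in each fusion. Smc4 (chromosome 3, 69004738 to 69034623), a core ATPase of condensin, had 64.5, 97.8 and 87.1 CPM in YAP1-MAMLD1-dR3R1 tumours, 49.4, 51.5 and 59.8 in YAP1-FAM118B tumours, 155, 144 and 185 in YAP1-TFE3 tumours, against 8.46, 7.41 and 9.77 in naive cortex. It rose by 3.28 ± 0.19, 2.65 ± 0.19 and 4.24 ± 0.20. Its partner Smc2 rose by 2.30, 1.54 and 3.16 from a naive mean of 11.4 CPM, and the condensin I subunits Ncapg and Ncaph rose by 2.31 to 4.84. Foxm1 (chromosome 6, 128362994 to 128375886), the only transcription factor of the set, had 30.8, 47.95 and 48.6 CPM in YAP1-MAMLD1-dR3R1 tumours, 23.7, 25.8 and 23.8 in YAP1-FAM118B tumours, 86.4, 92.6 and 117 in YAP1-TFE3 tumours, against 2.18, 2.01 and 1.23 in naive cortex. Its groups did not overlap, and it rose by 4.55 ± 0.27, 3.75 ± 0.26 and 5.76 ± 0.28 (edgeR adjusted p of 3.13e-06, 1.61e-05 and 4.38e-07).

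YAP1-TFE3 tumours exceeded both other fusions in nearly all of these genes. Against YAP1-MAMLD1-dR3R1 tumours 42 of the 46 rose, where 22.6% of all genes were called higher. None was called lower by edgeR or DESeq2, where 16.9% and 22.2% of all genes were, and none at an unadjusted p under 0.05. The median log2 difference was 1.33, beside -0.05 over all genes, and in 43 genes every YAP1-TFE3 library lay above every YAP1-MAMLD1-dR3R1 library, as in 27.0% of all genes. Against YAP1-FAM118B tumours 45 rose, where 28.0% of all genes were called higher. None fell by edgeR or DESeq2, where 23.7% and 25.8% of all genes did, and none at an unadjusted p under 0.05. That median was 2.04, beside 0.08 over all genes, and the libraries were separated in 45 genes, as in 31.4% of all genes. Scaling moved the calls over all genes: 3695 higher and 2761 lower against YAP1-MAMLD1-dR3R1 with TMM became 2803 and 3866 with library size only, and 4582 higher and 3878 lower against YAP1-FAM118B became 3386 and 4812. The members' median stood 1.38 above that of all genes with TMM and 1.39 above it with library size only against YAP1-MAMLD1-dR3R1, and 1.96 above it in both scalings against YAP1-FAM118B. Without naive replicate 2 and YAP1-FAM118B replicate 2 the members called higher numbered 41 and 43, where 20.9% and 22.3% of all genes were called higher. When the test required more than a 2-fold difference (glmTreat), 12 members passed as higher against YAP1-MAMLD1-dR3R1, where 5.73% of all genes did. Against YAP1-FAM118B 42 members passed that test as higher, where 8.17% of all genes did.

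The largest differences from YAP1-MAMLD1-dR3R1 lay in genes of several functions. Aurka was 2.14 ± 0.25 higher in YAP1-TFE3 tumours (edgeR adjusted p of 0.000173), Ect2 2.03 ± 0.25 (0.0002) and Pbk 2.03 ± 0.47 (0.00702), followed by Spc25, Cdk1, Cdc20 and Hmmr at 1.89 to 1.96. Against YAP1-FAM118B tumours the smallest adjusted p among the 46 belonged to Tpx2 (2.22 ± 0.19, edgeR adjusted p of 2.52e-05) and Ccna2 (2.11 ± 0.19, edgeR adjusted p of 3.15e-05), and the largest difference to Pbk (3.37 ± 0.50, edgeR adjusted p of 0.000474). Spc25 and Spc24 were 2.77 and 2.42 higher (edgeR adjusted p of 3.77e-05 and 6.28e-05), and Kif4, Hmmr and Cenpe 2.39, 2.21 and 2.0 (edgeR adjusted p of 6.69e-05, 5.68e-05 and 6.02e-05). In Ect2 the 3 YAP1-TFE3 libraries lay between 77.0 and 80.7 CPM, and no other library exceeded 22.3 CPM.

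Of the 46 genes 4 did not pass between YAP1-TFE3 and YAP1-MAMLD1-dR3R1 tumours. Espl1 (chromosome 15, 102296254 to 102324357), the protease that cuts cohesin at anaphase, had 26.1, 39.7 and 46.4 CPM in YAP1-MAMLD1-dR3R1 tumours, 17.4, 14.6 and 21.5 in YAP1-FAM118B tumours, 20.9, 23.1 and 34.04 in YAP1-TFE3 tumours, against 0.616, 1.17 and 1.72 in naive cortex. It was the only one of the 46 with its highest mean in YAP1-MAMLD1-dR3R1 tumours, although the YAP1-TFE3 and YAP1-MAMLD1-dR3R1 libraries overlapped, and the differences were -0.52 ± 0.34 for YAP1-TFE3 against YAP1-MAMLD1-dR3R1 (edgeR adjusted p of 0.238) and 0.55 ± 0.34 for YAP1-TFE3 against YAP1-FAM118B (edgeR adjusted p of 0.201). As a share of the summed level of the 46, Espl1 was 2.15 to 2.42% in YAP1-MAMLD1-dR3R1 tumours, 1.47 to 2.22% in YAP1-FAM118B tumours and 0.563 to 0.755% in YAP1-TFE3 libraries, so that its share was lowest in every YAP1-TFE3 library among the tumours. Kif15 was 0.43 ± 0.30 (edgeR adjusted p of 0.275), and YAP1-TFE3 replicate 3, at 29.6 CPM, was the only YAP1-TFE3 library above all YAP1-MAMLD1-dR3R1 libraries; without it the difference was -0.02 (edgeR adjusted p = 0.973). Its share of the summed level was 0.932 to 0.974% in YAP1-MAMLD1-dR3R1 tumours, 1.00 to 1.09% in YAP1-FAM118B tumours and 0.414 to 0.656% in YAP1-TFE3 libraries. Kif2c had 20.7, 38.1 and 46.9 CPM in YAP1-MAMLD1-dR3R1 tumours, 12.98, 16.5 and 13.2 in YAP1-FAM118B tumours, 47.7, 42.8 and 59.6 in YAP1-TFE3 tumours, against 0.369, 0.670 and 0.264 in naive cortex, and differed by 0.51 ± 0.32 between YAP1-TFE3 and YAP1-MAMLD1-dR3R1 (edgeR adjusted p of 0.224). Melk differed by 0.72 ± 0.53 (edgeR adjusted p of 0.295), although all 3 YAP1-TFE3 libraries lay above the YAP1-MAMLD1-dR3R1 libraries. Against YAP1-FAM118B tumours Espl1 was the only gene that did not pass.

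**Figure D4:**
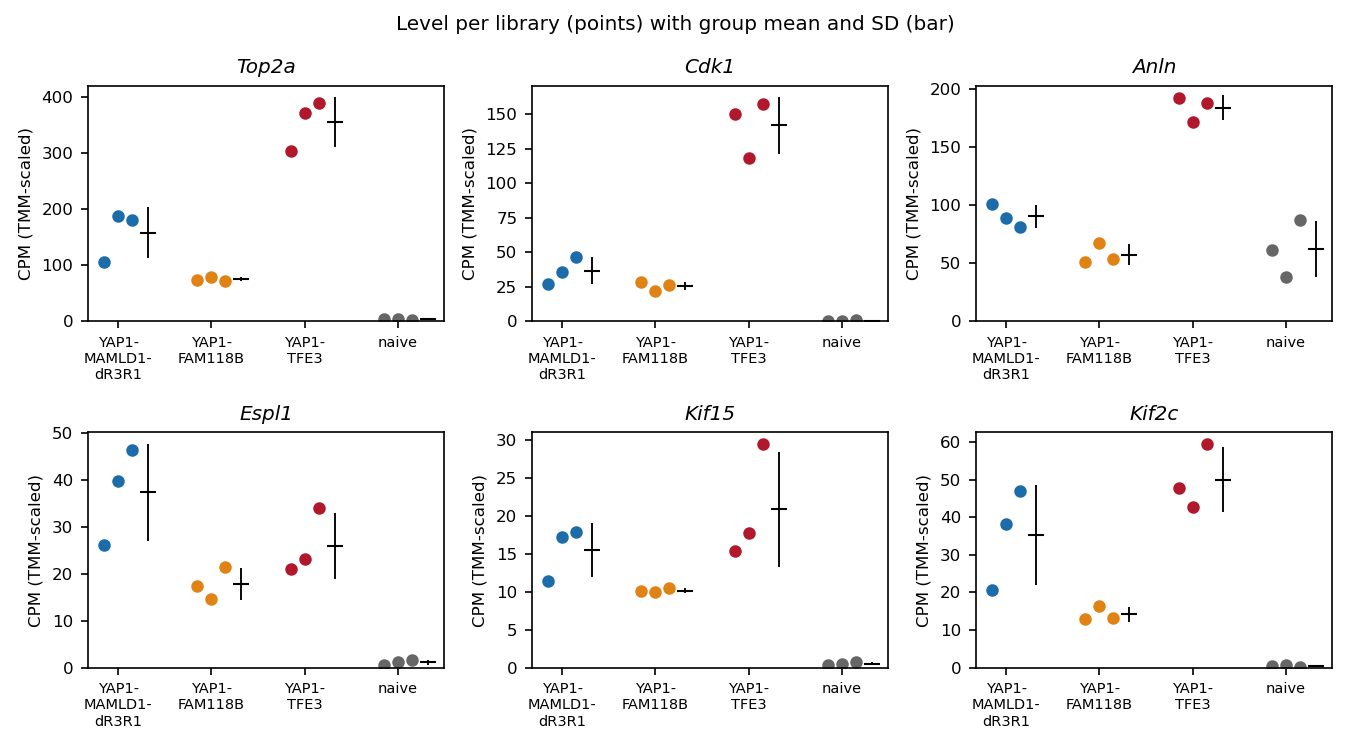
Level per library (points; CPM scaled by TMM factors, linear axis from 0) with group mean and SD (bars) for 6 genes. Top2a and Cdk1 follow the common order, Anln overlaps between YAP1-FAM118B tumours and naive cortex, Espl1 has its highest mean in YAP1-MAMLD1-dR3R1 tumours, and YAP1-TFE3 and YAP1-MAMLD1-dR3R1 libraries of Kif15 and of Kif2c overlap.

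YAP1-FAM118B tumours held less of every one of the 46 genes than YAP1-MAMLD1-dR3R1 tumours by fold change, but 25 of the differences did not pass the test. Of the 46, 21 fell in YAP1-FAM118B tumours, where 13.5% of all genes were called lower. None rose by edgeR or DESeq2, where 12.7% and 18.2% of all genes were called higher, and none at an unadjusted p under 0.05. The median log2 difference was -0.73, beside -0.05 over all genes, and in 36 genes every YAP1-FAM118B library lay below every YAP1-MAMLD1-dR3R1 library, as in 25.0% of all genes. The 21 were Mki67, Top2a, Ccnb2, Ccna2, Aurkb, Mad2l1, Nuf2, Spc24, Spc25, Kif11, Kif4, Kif2c, Tpx2, Nusap1, Prc1, Espl1, Foxm1 and the 4 condensin genes. Top2a fell by 1.08 ± 0.25 (edgeR adjusted p of 0.0161), Kif2c by 1.31 ± 0.32 (edgeR adjusted p of 0.0192) and Prc1 by 0.99 ± 0.24 (edgeR adjusted p of 0.0174). No kinase of mitotic entry and no cytokinesis gene passed, with log2 differences from -0.21 for Aurka to -1.34 for Pbk (edgeR adjusted p of 0.531 and 0.0564). Condensin genes differed by -0.91 to -0.63 and all passed. Without both naive replicate 2 and YAP1-FAM118B replicate 2 the 4 of the 46 that passed were Kif2c (-1.43), Tpx2 (-0.78), Pbk (-1.63) and Anln (-0.79), while Top2a was -1.12 (edgeR adjusted p = 0.0601), Prc1 -0.98 (edgeR adjusted p = 0.0814) and the condensin genes -0.84 for Ncaph to -0.61 for Smc4 (edgeR adjusted p of 0.0734 and 0.101).

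This count of 21 moved with the libraries in the fit. It was 32 without YAP1-MAMLD1-dR3R1 replicate 1, and 0 without YAP1-MAMLD1-dR3R1 replicate 2, without YAP1-MAMLD1-dR3R1 replicate 3 or without YAP1-FAM118B replicate 1. It was 4 without YAP1-FAM118B replicate 2 and 8 without YAP1-FAM118B replicate 3, and 13 without naive replicate 1 or without YAP1-TFE3 replicate 1. Naive and YAP1-TFE3 libraries are not compared here, but they enter the scaling and the model. In the fits with 13 calls the median log2 difference over all genes was 0.04, against -0.05 with all libraries. It was also 0.04 without YAP1-TFE3 replicate 2 (15 calls) or YAP1-TFE3 replicate 3 (16 calls), and -0.05 without YAP1-FAM118B replicate 1 (no call). The part of this median in the counts was not tested. Leaving out any other library gave a count of 15 to 24, leaving out both naive replicate 2 and YAP1-FAM118B replicate 2 gave 4, and DESeq2 gave 35 with all libraries. The difference for Aurka was 0.02 without YAP1-MAMLD1-dR3R1 replicate 3 (edgeR adjusted p = 0.961). The median log2 difference of the 46 was -0.54 without YAP1-MAMLD1-dR3R1 replicate 2, -0.57 without YAP1-MAMLD1-dR3R1 replicate 3 and -0.71 without YAP1-FAM118B replicate 1, the fits with no call, and ran from -0.89 to -0.54 over all fits with 1 library left out. Relative to the median of all genes, it stood at -0.68 with all libraries and at -0.87 to -0.59 with 1 library left out. In the fits with no call, in that order, genes called lower made up 3.76%, 4.14% and 4.59% of all genes, against 13.5% with all libraries. They made up 14.7% without YAP1-MAMLD1-dR3R1 replicate 1, 5.71% without YAP1-FAM118B replicate 2 and 8.63% without YAP1-FAM118B replicate 3. Without naive replicate 1 the share was 8.11%, and without YAP1-TFE3 replicate 1 it was 10.3%. It was 2.86% without both naive replicate 2 and YAP1-FAM118B replicate 2, and 18.5% by DESeq2.

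**Figure D5:**
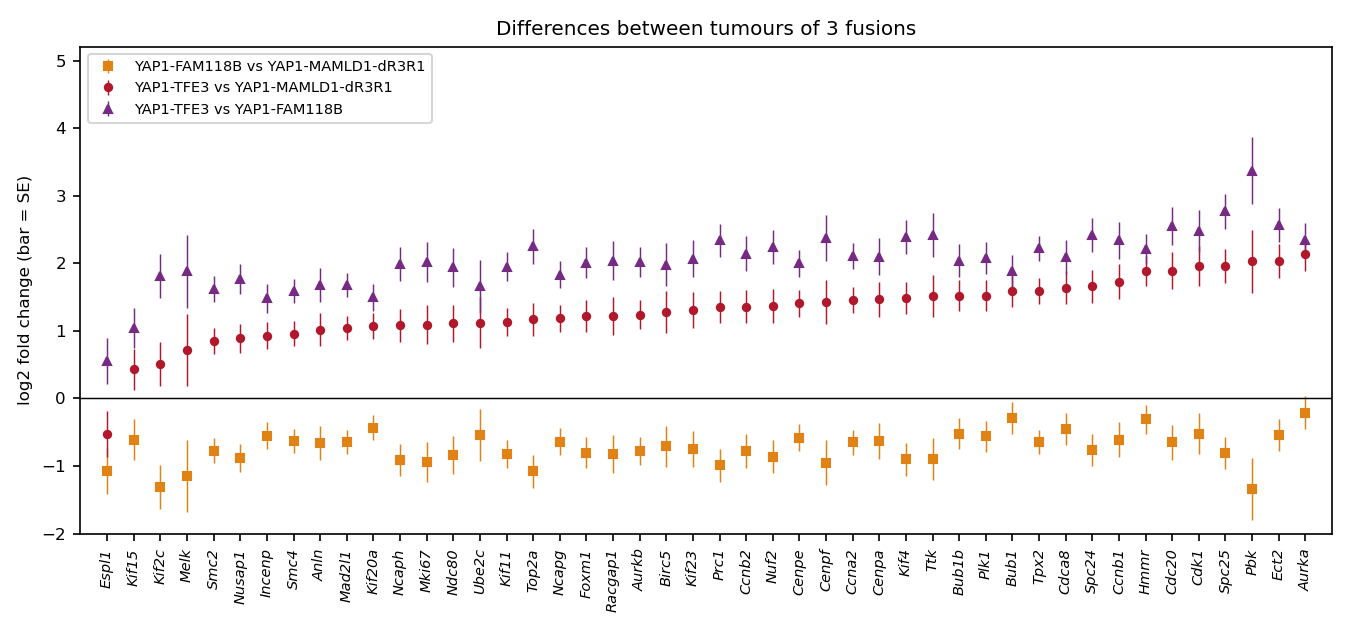
Log2 fold change (marker) and SE (bar) of each of the 46 genes between tumours of 3 fusions: YAP1-FAM118B against YAP1-MAMLD1-dR3R1 (orange squares), YAP1-TFE3 against YAP1-MAMLD1-dR3R1 (red circles) and YAP1-TFE3 against YAP1-FAM118B (purple triangles), ordered by YAP1-TFE3 against YAP1-MAMLD1-dR3R1. All orange squares lie below 0, all purple triangles above 0 and all red circles but that of Espl1 above 0.

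Libraries of one group differed in how uniform these genes were. YAP1-MAMLD1-dR3R1 replicate 1 was the lowest of its group in 44 of the 46 genes, against 39.9% of all genes, and held 1215.1 CPM of the set where the other YAP1-MAMLD1-dR3R1 libraries held 1777.0 and 1918.4. It was also the only YAP1-MAMLD1-dR3R1 library with Xist (522 CPM, against 0 and 0.0438 CPM in replicates 2 and 3) and without Ddx3y. Its microglia markers summed to 7306 CPM, against 11794 and 11323 in YAP1-MAMLD1-dR3R1 replicates 2 and 3, its T and NK cell markers to 11.9, against 109 and 67.0, its monocyte and macrophage markers to 3876, against 1862 and 2598, and its neuron markers to 1481, against 1147 and 526. The part of these differences in the lower mitotic level was not tested. YAP1-TFE3 replicate 3 was the highest of its group in 34 genes, against 42.8% of all genes. The median coefficient of variation of the 46 was 24.7% in YAP1-MAMLD1-dR3R1 tumours, 9.01% in YAP1-FAM118B tumours and 14.2% in YAP1-TFE3 tumours, against 31.4% in naive cortex, beside 19.3%, 18.8%, 23.2% and 13.8% over all genes. In naive cortex 20 of the 46 averaged under 1 CPM and 14 had fewer than 10 counts in at least 1 library. Counting error enters the naive value, and its part was not tested.

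A list of 58 further mitosis genes, chosen from general knowledge, was counted in the same way. Against naive cortex 48 rose and 4 fell in YAP1-MAMLD1-dR3R1 tumours, 43 rose and 1 fell in YAP1-FAM118B tumours and 53 rose and 2 fell in YAP1-TFE3 tumours, with median log2 fold changes of 3.05, 2.37 and 4.12. These counts and those of the lists that follow stand beside 34.4% of all genes called higher in YAP1-MAMLD1-dR3R1 tumours, 21.3% in YAP1-FAM118B tumours and 40.6% in YAP1-TFE3 tumours. Genes called lower made up 28.8%, 8.45% and 30.0% in the same order. Dlgap5, a spindle assembly factor, averaged 15.3 ± 2.22 CPM in YAP1-MAMLD1-dR3R1 tumours, 9.73 ± 1.77 in YAP1-FAM118B tumours and 43.7 ± 3.75 in YAP1-TFE3 tumours, against 0.282 ± 0.0150 in naive cortex (SD, n = 3 each), and Arhgap11a and Iqgap3 rose by 3.26 and 5.56 in YAP1-MAMLD1-dR3R1 tumours, 2.53 and 4.42 in YAP1-FAM118B tumours and 4.78 and 6.73 in YAP1-TFE3 tumours. Cit, a cytokinesis kinase also expressed in neurons, went the other way, at 16.4 ± 2.85 CPM in YAP1-MAMLD1-dR3R1 tumours, 62.2 ± 10.6 in YAP1-FAM118B tumours and 32.4 ± 2.95 in YAP1-TFE3 tumours, against 114 ± 35.1 in naive cortex, and fell in each fusion by edgeR's test (-2.80, -0.87 and -1.82). Its call in YAP1-FAM118B tumours was lost without naive replicate 1 or 3, and without YAP1-FAM118B replicate 1 or 3. Zwint, a kinetochore protein abundant in neurons, fell in YAP1-MAMLD1-dR3R1 and YAP1-TFE3 tumours (-2.31 and -2.11) and was -1.02 in YAP1-FAM118B (edgeR adjusted p of 0.0597). Neuron markers were lower in the tumours, as given above, and their part in the Cit and Zwint values was not tested. Between fusions, 42 of the 58 rose in YAP1-TFE3 against YAP1-MAMLD1-dR3R1, where 22.6% of all genes were called higher. In YAP1-TFE3 against YAP1-FAM118B, 52 rose and 2 fell, where 28.0% of all genes were called higher and 23.7% lower. In YAP1-FAM118B against YAP1-MAMLD1-dR3R1, 2 rose and 16 fell, where 12.7% were called higher and 13.5% lower. The 16 became 2 to 23 with 1 library left out, lowest without YAP1-MAMLD1-dR3R1 replicate 2, and 3 without both naive replicate 2 and YAP1-FAM118B replicate 2.

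The ubiquitin ligase that ends mitosis had small median fold changes. Of 16 genes of the anaphase-promoting complex and its regulators 9 rose and 1 fell in YAP1-MAMLD1-dR3R1 tumours, 3 rose in YAP1-FAM118B tumours and 9 rose in YAP1-TFE3 tumours, with medians of 0.35, 0.15 and 0.49. The 3 of 16 in YAP1-FAM118B tumours are a share below the 21.3% of all genes called higher there. Without naive replicate 1 the counts in YAP1-MAMLD1-dR3R1 tumours were 4 higher and 1 lower. They were 2 higher in YAP1-FAM118B tumours, and 7 higher and 1 lower in YAP1-TFE3 tumours. Of all genes 29.2%, 17.0% and 31.5% were called higher in that fit and 24.8%, 2.49% and 31.0% lower. The medians of the 16 were then 0.29, 0.15 and 0.26. The inhibitor Fbxo5 (EMI1) rose most, by 3.26, 2.41 and 3.49, the subunit Anapc15 by 0.88, 0.61 and 1.47, and the subunit Cdc23 by 0.35 in YAP1-MAMLD1-dR3R1 and 0.69 in YAP1-TFE3 tumours. Exons of Cdc23 share 1271 bases with those of Kif20a on the opposite strand, and reads from that stretch may count for either gene. Fzr1 (CDH1), the activator that replaces CDC20 after mitosis, fell in YAP1-MAMLD1-dR3R1 tumours (-0.47, edgeR adjusted p of 0.0074). Subunits of cohesin, the ring that separase opens, also showed small medians of 0.51, 0.29 and 0.64 over 8 genes. Rad21, the cohesin subunit cut by separase, averaged 202 ± 17.5 CPM in YAP1-MAMLD1-dR3R1 tumours, 163 ± 10.6 in YAP1-FAM118B tumours and 257 ± 10.3 in YAP1-TFE3 tumours, against 142 ± 7.07 in naive cortex. Stag1, an alternative cohesin subunit, rose by 1.11, 0.54 and 1.06, and Pds5b, a cohesin regulator, fell in each fusion (-1.12, -0.60 and -1.70).

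A list of 20 regulators of cell cycle transcription held MuvB, B-MYB, NF-Y, pocket protein and E2F genes as well as Trp53 and its target Cdkn1a. In YAP1-MAMLD1-dR3R1 tumours 16 rose and 2 fell, in YAP1-FAM118B tumours 9 rose and 1 fell, and in YAP1-TFE3 tumours 17 rose and 2 fell, with medians of 0.89, 0.57 and 1.64. Lin54, the MuvB subunit that contacts the CHR, averaged 20.7 ± 0.419 CPM in YAP1-MAMLD1-dR3R1 tumours, 16.7 ± 1.25 in YAP1-FAM118B tumours and 60.6 ± 2.69 in YAP1-TFE3 tumours, against 14.9 ± 0.835 in naive cortex. It rose by 1.55 ± 0.10 in YAP1-TFE3 against YAP1-MAMLD1-dR3R1 and by 1.86 ± 0.10 in YAP1-TFE3 against YAP1-FAM118B tumours (edgeR adjusted p of 1e-05 and 3.97e-06). Nfyc, a subunit of NF-Y, averaged 26.2 ± 3.799 CPM in YAP1-MAMLD1-dR3R1 tumours, 22.1 ± 2.03 in YAP1-FAM118B tumours and 71.3 ± 9.23 in YAP1-TFE3 tumours, against 18.8 ± 2.53 in naive cortex. Its partner subunit Nfyb averaged 25.1 ± 0.622 CPM in YAP1-MAMLD1-dR3R1 tumours, 35.1 ± 2.42 in YAP1-FAM118B tumours and 19.7 ± 2.53 in YAP1-TFE3 tumours, against 43.7 ± 10.5 in naive cortex, and fell in YAP1-MAMLD1-dR3R1 and YAP1-TFE3 tumours (-0.80 and -1.15). The MuvB subunit Lin52 fell in YAP1-MAMLD1-dR3R1 and YAP1-FAM118B tumours (-0.85 and -0.55). E2f8, an atypical E2F repressor, rose by 4.96, 3.54 and 5.98. Mybl2 (B-MYB), named after its values were seen, rose by 3.85, 3.32 and 4.49 (edgeR adjusted p of 0.00191, 0.00993 and 0.000673), at means of 7.26 CPM in YAP1-MAMLD1-dR3R1 tumours, 5.01 in YAP1-FAM118B tumours and 11.3 in YAP1-TFE3 tumours, against 0.499 in naive cortex.

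Genes of earlier cell cycle phases formed 2 more lists. Of 34 DNA replication genes 31 rose in YAP1-MAMLD1-dR3R1 tumours, 29 in YAP1-FAM118B tumours and 33 in YAP1-TFE3 tumours, with medians of 2.47, 1.73 and 3.46. In YAP1-FAM118B against YAP1-MAMLD1-dR3R1 tumours 24 of the 34 fell, where 13.5% of all genes were called lower, with a median of -0.86. That count was 6 to 27 with 1 library left out, lowest without YAP1-MAMLD1-dR3R1 replicate 2, and 5 without both naive replicate 2 and YAP1-FAM118B replicate 2, with a median of -0.88. In YAP1-TFE3 against YAP1-MAMLD1-dR3R1 tumours 15 rose, where 22.6% of all genes were called higher, with a median of 0.60. Against YAP1-FAM118B tumours 33 rose in YAP1-TFE3 tumours, where 28.0% of all genes were called higher, with a median of 1.44. Mcm3, a subunit of the replicative helicase, averaged 80.7 ± 17.6 CPM in YAP1-MAMLD1-dR3R1 tumours, 30.6 ± 3.96 in YAP1-FAM118B tumours and 109.7 ± 25.8 in YAP1-TFE3 tumours, against 3.67 ± 0.630 in naive cortex, and its difference between YAP1-TFE3 and YAP1-MAMLD1-dR3R1 was 0.44 (edgeR adjusted p of 0.126). Rrm2, the small subunit of ribonucleotide reductase, averaged 49.8 ± 6.79 CPM in YAP1-MAMLD1-dR3R1 tumours, 26.5 ± 5.04 in YAP1-FAM118B tumours and 697 ± 265 in YAP1-TFE3 tumours, against 3.02 ± 0.842 in naive cortex. Dbf4, the activator of the replication kinase CDC7, averaged 19.5 ± 2.19 CPM in YAP1-MAMLD1-dR3R1 tumours, 11.4 ± 1.60 in YAP1-FAM118B tumours and 53.8 ± 2.28 in YAP1-TFE3 tumours, against 1.12 ± 0.309 in naive cortex. Of 13 G1 cyclins, CDKs and inhibitors 10 rose and 1 fell in YAP1-MAMLD1-dR3R1 tumours, 9 rose in YAP1-FAM118B tumours and 10 rose in YAP1-TFE3 tumours. Ccnd1, cyclin D1, averaged 889 ± 281 CPM in YAP1-MAMLD1-dR3R1 tumours, 171 ± 24.8 in YAP1-FAM118B tumours and 3479 ± 342 in YAP1-TFE3 tumours, against 67.5 ± 2.17 in naive cortex. The CDK4 and CDK6 inhibitors Cdkn2c and Cdkn2b rose by 2.73 to 5.44 and by 4.39 to 5.23. Ccne1, cyclin E1, averaged 8.596 ± 0.957 CPM in YAP1-MAMLD1-dR3R1 tumours, 15.4 ± 2.02 in YAP1-FAM118B tumours and 20.2 ± 5.49 in YAP1-TFE3 tumours, against 17.1 ± 3.41 in naive cortex. It fell in YAP1-MAMLD1-dR3R1 tumours (-0.99, edgeR adjusted p of 0.0037), and its differences from naive cortex in YAP1-FAM118B tumours and YAP1-TFE3 tumours were -0.15 and 0.24 (edgeR adjusted p of 0.617 and 0.363).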

How the data were processed

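Total RNA of 12 mouse brain samples was sequenced. The authors deposited, for each sample, an unnormalized read count per gene symbol; per the submitters' processing notes HTSeq and mm10 were used. Aligner, annotation, strand setting, versions and filters: not given in the sources used here. Reads of overlapping genes therefore cannot be told apart, and exons of 10 of the 46 genes overlap those of another protein-coding gene. Overlaps with other kinds of genes were not searched. Totals were 19850220 to 24760814 counts per library, and intervals and floors from counts cover counting error only.

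Groups came from the sample titles. The filter was filterByExpr at a minimum count of 10, leaving 16364 genes. Counts were scaled with TMM factors and tested in 6 contrasts with edgeR 4.0.16 (limma 3.58.1, R 4.3.3), a quasi-likelihood model over all 12 libraries, with Benjamini-Hochberg adjustment at 0.05 over all genes. The SE is the log2 fold change divided by the square root of F. CPM of genes uses TMM-scaled library sizes; marker sums, Xist and Ddx3y use library totals. Exon lengths are unions of GENCODE M21 exons. Positions and promoter windows are RefSeq's on GRCm38.p6, and coordinates were not converted, since mm10 and GRCm38 are one build.

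The 46 genes, the comparison lists and the naming rule were set with earlier results of these data known. By that rule the text gives every library for the most abundant gene of each function, the 8 genes with the smallest adjusted p between fusions, genes not passing against naive, the 3 largest and 3 smallest mean fold changes and the extremes per kilobase; Espl1 and Kif2c were added after their values were seen. From each list it takes 3 genes by adjusted p and up to 2 that went against the majority. Alternatives were DESeq2 1.42.0, other scalings and filters, robust dispersion, a test against 2-fold, only the groups compared, a replicate block, each library left out, and both libraries with Xist and Ddx3y left out. The counts of the comparison lists with libraries left out were added after seeing the data. The script was tested on simulated data first.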

Additional observations from a re-analysis of the deposited data

How the results depend on the processing

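Over the 46 genes, 6 comparisons and all alternatives, 6031 of 6348 single-gene results kept their direction and their side of the threshold, 56 gained the call, 258 lost it and 3 reversed. The reversals were Anln in YAP1-FAM118B against naive (0.21 without naive replicate 3, range -0.37 to 0.21 with any 1 library left out), Aurka in YAP1-FAM118B against YAP1-MAMLD1-dR3R1 (0.02 without YAP1-MAMLD1-dR3R1 replicate 3, range -0.38 to 0.02) and Kif15 in YAP1-TFE3 against YAP1-MAMLD1-dR3R1 (-0.02 without YAP1-TFE3 replicate 3, range -0.02 to 0.45); the cause was not tested. Genes called numbered 10339 for YAP1-MAMLD1-dR3R1 vs naive, 4861 for YAP1-FAM118B vs naive, 11547 for YAP1-TFE3 vs naive, 4293 for YAP1-FAM118B vs YAP1-MAMLD1-dR3R1, 6456 for YAP1-TFE3 vs YAP1-MAMLD1-dR3R1 and 8460 for YAP1-TFE3 vs YAP1-FAM118B; further sets of 6 counts keep this order. A test against 2-fold, which asks for a larger effect, called 5053, 1639, 6538, 8, 1561 and 3092 genes. It called 12 members higher in YAP1-TFE3 against YAP1-MAMLD1-dR3R1 and 42 in YAP1-TFE3 against YAP1-FAM118B. Of all genes 5.73% and 8.17% were called higher there. In YAP1-FAM118B against YAP1-MAMLD1-dR3R1 it called 0 members lower. In that last comparison the main test called 21 members lower and DESeq2 35, where 13.5% and 18.5% of all genes were called lower. Without both replicates 2 (naive and YAP1-FAM118B) 4 members and 2.86% of all genes were lower, with 1010 genes called in either direction. Fewer samples entered that fit.

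Leaving out 1 library gave 8996 to 10808, 2979 to 5475, 10406 to 11669, 1666 to 5069, 4953 to 6667 and 6933 to 8573 genes called. The members called higher were then 45 to 46, 45 and 46 against naive, 39 to 42 in YAP1-TFE3 against YAP1-MAMLD1-dR3R1 and 44 to 45 in YAP1-TFE3 against YAP1-FAM118B, and those lower in YAP1-FAM118B against YAP1-MAMLD1-dR3R1 were 0 to 32. The labels do not say whether the replicate numbers pair the samples. Over 18 same-numbered pairs the correlation of deviations from the group means was -0.116 to 0.335, over 0.1 in 4 pairs. Differently numbered pairs ran from -0.441 to 0.392. With 3 libraries per group the deviations of a group are tied to each other, so these values cannot settle whether samples are paired. With the replicate number as a block, 10186, 4717, 11330, 4194, 6391 and 8222 genes were called, with 45, 45 and 46 members higher against naive, 18 lower in YAP1-FAM118B against YAP1-MAMLD1-dR3R1, 41 higher in YAP1-TFE3 vs YAP1-MAMLD1-dR3R1 and 45 higher in YAP1-TFE3 vs YAP1-FAM118B. In naive cortex Cdk1, Bub1 and Ube2c, with the largest mean fold changes, had 30, 15 and 24 counts in all. The part of such low counts in the precision was not tested.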
